A study of Mus musculus with 12 samples.

Results

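Lhx1 and Lhx5 encode closely related LIM-homeodomain transcription factors, and each has a long noncoding RNA (lncRNA) beginning beside its start and running the other way, Lhx1os beside Lhx1 and Gm27199 beside Lhx5. These 4 features were taken by name: Lhx1 and Lhx5 among 4859 genes of a coding table, and 1 transcript each of Lhx1os and Gm27199 among 200 transcripts of a lncRNA table, 4 of 5059 listed features in all. The study compared cells of the embryonic mouse cerebral cortex of the transgenic strain Tg(Ebf2-EGFP)FB58Gsat, in which Ebf2 regulatory sequence drives EGFP, after sorting on EGFP. Stage (embryonic day E11.5, then E13.5, then E15.5) and population (Ebf2-EGFP+ or Ebf2-EGFP-) made 6 groups, each with 2 libraries of polyadenylated RNA, each made from pooled embryos, so all 12 libraries carried the same transgene and differed in stage and sorted population. By the study's account the Ebf2-EGFP+ cells were for the most part preplate neurons at E11.5 (subplate and Cajal-Retzius neurons) and mostly Cajal-Retzius neurons by E15.5, while the Ebf2-EGFP- cells held progenitors and, later, other neurons.

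LIM-homeodomain proteins bind DNA through a homeodomain and bind cofactors such as Ldb proteins through LIM domains, and LIM-only proteins compete for the same cofactors. Lhx1 and Lhx5 are known for their part in forming the head and forebrain, and Lhx5 is known from the cortical hem and from Cajal-Retzius cells, the early layer 1 neurons that secrete reelin. A divergent lncRNA shares a start region with its coding neighbour but not its coding sequence, and in most cases little is known of what it does.

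The positions of both pairs are given on GRCm38 (the same assembly as mm10) from the GENCODE M21 annotation. Lhx1 lies on the minus strand at chr11:84518284-84525535, and Lhx1os, annotated as a lincRNA, on the plus strand at chr11:84525660-84535831. The deposited Lhx1os transcript, ENSMUST00000128121.1, starts 149 bases from Lhx1, is 599 bases long and has 0 bases in common with the Lhx1 exons. Lhx5 lies on the plus strand at chr5:120431699-120441223, and Gm27199, annotated as antisense, on the minus strand at chr5:120419659-120431767, with a spliced length of 623 bases. This Gm27199 model is ENSMUST00000185026.2, whereas the deposited transcript is ENSMUST00000185026.1, whose exons were not checked and may differ. In GENCODE the first exon of Gm27199 overlaps the first exon of Lhx5, in its 5' UTR, by 69 bases, whereas the RefSeq models start 119 bases apart with 0 bases of overlap. The library kit is not stated to keep strand, so within that stretch fragments of Gm27199 and Lhx5 could not be told apart.

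**Figure D1:**
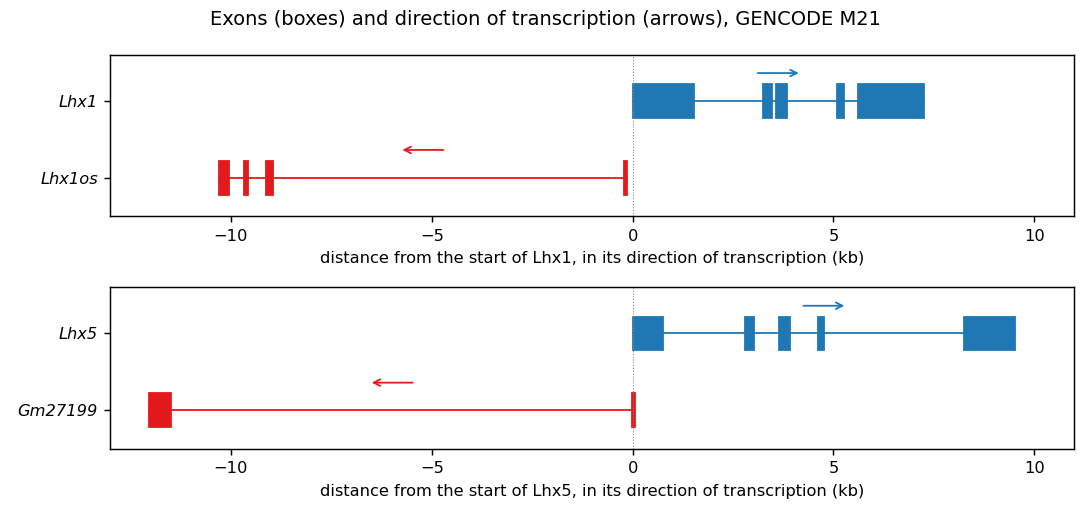
Exons of the 4 transcripts (boxes), with introns as lines and arrows for the direction of transcription, plotted by distance in kb from the start of the coding gene in its own direction. Both lncRNAs run away from their neighbours, and in GENCODE M21 only the first exon of Gm27199 reaches over the start of its coding neighbour, by 69 bases.

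RefSeq promoter sequences (GRCm38.p6) were at hand for Lhx1 and Lhx1os, 2 of the 4 members; Lhx5 and Gm27199 are named only. The 250 bases before the RefSeq start of Lhx1, chr11:84525535-84525784 read on the minus strand, are shown because they hold the whole start region between the pair: capitals mark the 65 bases of the first exon of the deposited Lhx1os transcript, which is read from the other strand. The second exon of that transcript, chr11:84534480-84534660 on the plus strand, is shown because its last 100 bases, in capitals, lie in neither of the other annotated Lhx1os transcripts and so are what sets the deposited transcript apart.
Lhx1 upstream window: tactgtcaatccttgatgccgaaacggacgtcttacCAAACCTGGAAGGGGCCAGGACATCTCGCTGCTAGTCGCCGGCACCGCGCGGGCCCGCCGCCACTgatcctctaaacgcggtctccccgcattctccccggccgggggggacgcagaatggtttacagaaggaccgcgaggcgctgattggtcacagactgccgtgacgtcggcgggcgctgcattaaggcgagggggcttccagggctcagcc
Lhx1os exon 2: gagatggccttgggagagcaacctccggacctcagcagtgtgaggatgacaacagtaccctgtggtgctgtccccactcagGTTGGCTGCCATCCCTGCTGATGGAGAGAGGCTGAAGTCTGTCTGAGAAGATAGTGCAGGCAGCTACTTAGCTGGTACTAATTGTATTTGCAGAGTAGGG

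Short motifs were searched on both strands of the 300-base RefSeq windows (250 bases before and 50 after the start): TAATTA (a homeodomain core), CCCNNGGGA (an EBF core), CCAAT and TATAAA, which do not contain one another. Only CCAAT occurred, 68 bases before the Lhx1 start and 62 bases before the Lhx1os start, which is the same site seen from each side and reads attgg in the window above. It occurred in 37.4% of 32851 promoter windows, against 5.29% for TAATTA, 6.56% for CCCNNGGGA and 13.6% for TATAAA. The Lhx1 window had a GC content of 65.7%, above that of 83% of the windows. A match is a run of letters and not a measured binding site.

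Levels are given as FPKM, fragments scaled to transcript length and to mapped fragments, computed by the authors with Cufflinks. Both tables list only features the authors reported as differential, so the tests below describe the list and do not check its selection. The depth behind each value is unknown, and the precision comes from 2 libraries a group. The transcripts of Lhx1 and Lhx5 shared no exact run longer than 20 bases and 0 of 2665 windows of 25 bases, so few fragments could be assigned to the wrong one of the pair. As a check on the labels, Ebf2 was above its Ebf2-EGFP- level in Ebf2-EGFP+ cells of every stage: 49.1 to 61.2 FPKM against 0.952 to 1.17 for E11.5, 4.32 to 6.66 against 1.05 to 1.54 for E13.5, and 2.83 to 5.14 against 0.0644 to 0.103 for E15.5. The 9 Cajal-Retzius markers (among them Reln, Trp73 and Calb2) summed to 640 to 693 FPKM, 432 to 484 and 737 to 1317 in Ebf2-EGFP+ cells at the 3 stages, and to at most 96.5 in any Ebf2-EGFP- library. Of the 9, Tbr1 had the highest Ebf2-EGFP+ mean at E11.5 and E13.5 (268 and 226 FPKM) and Reln at E15.5 (662). Tbr1 also stood at 66.1 and 81.7 FPKM in the E13.5 Ebf2-EGFP- libraries. Beside these markers, the 7 cortical plate markers summed to 338 to 378, 1211 to 1272 and 825 to 1315 FPKM in the Ebf2-EGFP+ libraries of the 3 stages.

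Lhx1 was highest in E11.5 Ebf2-EGFP+ cells and much lower at both later stages. The Ebf2-EGFP+ libraries of E11.5 held 12.2 and 13.7 FPKM, those of E13.5 2.83 and 1.80, and those of E15.5 3.90 and 3.16. The Ebf2-EGFP- libraries held 0.281 and 0.350 FPKM (E11.5), 0.0447 and 0.0335 (E13.5), and 0.135 and 0.0413 (E15.5). Every Ebf2-EGFP+ library stood above every Ebf2-EGFP- library, and within Ebf2-EGFP+ cells the 3 stages did not overlap. Among the groups in order of their means, the E15.5 and E13.5 Ebf2-EGFP- libraries, at the foot, overlapped.

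Lhx5 was high in the earliest and latest Ebf2-EGFP+ cells and low between them. Its levels there were 25.5 and 21.5 FPKM for E11.5, 4.06 and 3.44 for E13.5, and 20.8 and 22.6 for E15.5. Among Ebf2-EGFP- libraries they were 3.68 and 3.87 FPKM for E11.5, 0.0748 and 0.0169 for E13.5, and 0.285 and 0.218 for E15.5. The E11.5 and E15.5 Ebf2-EGFP+ libraries overlapped, and the E11.5 Ebf2-EGFP- libraries lay within the range of the E13.5 Ebf2-EGFP+ libraries. Among the 4859 listed genes, 987 had a higher mean than Lhx5 in E11.5 Ebf2-EGFP+ cells and 1628 a higher mean than Lhx1.

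Lhx1os was present in every Ebf2-EGFP+ library and at or near 0 in Ebf2-EGFP- cells. The transcript stood at 6.64 and 2.42 FPKM in the E11.5 Ebf2-EGFP+ libraries, 3.54 and 2.71 in those of E13.5, and 6.96 and 7.19 in those of E15.5. Among Ebf2-EGFP- libraries it stood at 0.217 FPKM and a listed 0 (E11.5), was listed at 0 in both (E13.5), and stood at 0.254 and 1.6e-05 (E15.5). Here the highest group was E15.5, not E11.5, and the E11.5 libraries, which lay far apart, overlapped those of E13.5.

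Gm27199 dipped at E13.5 as Lhx5 did. Fragments from the 69 bases that their first exons share in GENCODE could count towards both, and their part in the Gm27199 levels was not tested. Ebf2-EGFP+ libraries of E11.5 held 7.78 and 8.14 FPKM, of E13.5 2.06 and 2.68, and of E15.5 5.14 and 12.7. Among Ebf2-EGFP- libraries the E11.5 pair held 0.653 and 1.52 FPKM, both of the E13.5 pair were listed at 0, and the E15.5 pair held 0.269 and 0.0648. The E13.5 Ebf2-EGFP+ libraries lay below the other Ebf2-EGFP+ libraries, and the E15.5 pair, which differed the most, took in the range of the E11.5 pair.

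**Figure D2:**
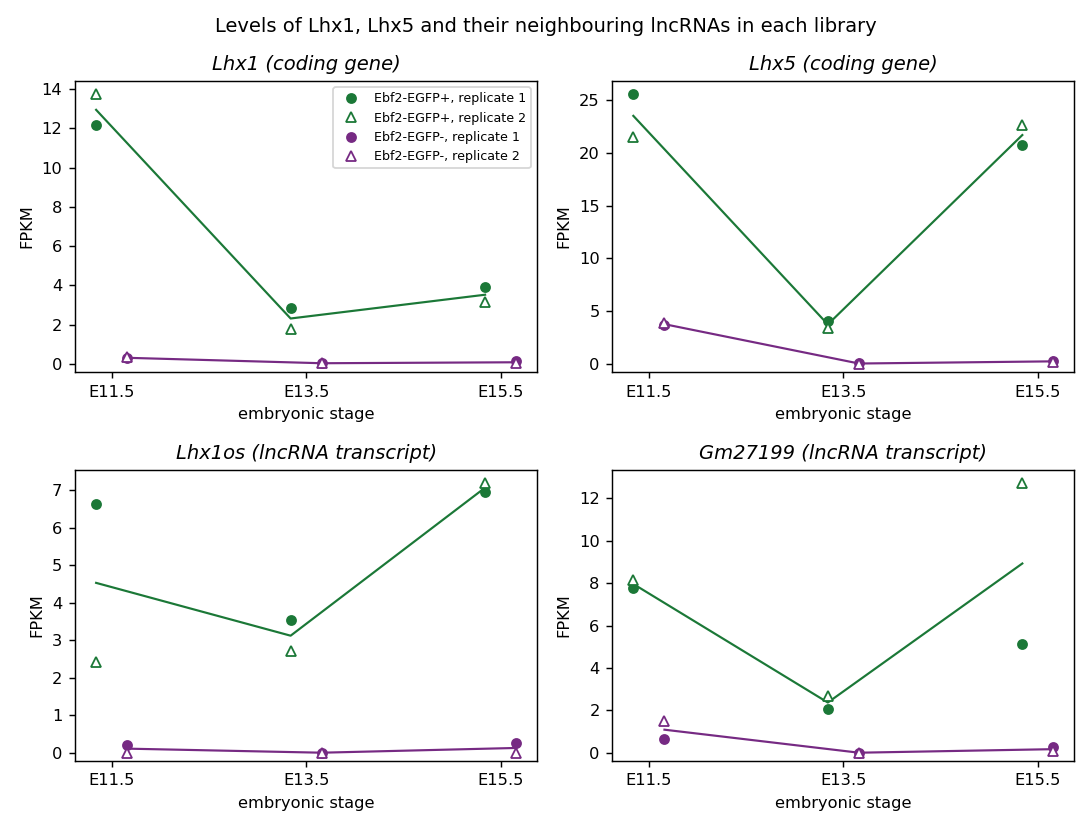
FPKM of Lhx1, Lhx5, Lhx1os and Gm27199 by embryonic stage in Ebf2-EGFP+ (green) and Ebf2-EGFP- cells (purple), with filled circles for replicate 1, open triangles for replicate 2 and lines through the means of 2 libraries. Lhx5 and Gm27199 fall to 3.75 and 2.37 FPKM (means) in the middle stage and return by E15.5, Lhx1 stays low after E11.5, and Lhx1os is highest at E15.5.

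The entry 1500016L03Rik of the coding table is an older symbol of Lhx1os in RefSeq, and was taken as a gene-level value of the same locus from the same reads. The annotation the authors used for it was not at hand, so the exons it covers were not checked. The Ebf2-EGFP+ levels of 1500016L03Rik were 7.86 and 4.85 FPKM (E11.5), 3.98 and 2.94 (E13.5), and 10.2 and 8.29 (E15.5). Its Ebf2-EGFP- levels were 0.205 FPKM and a listed 0 (E11.5), a listed 0 in both libraries (E13.5), and 0.253 and 0.183 (E15.5). By this entry the E11.5 libraries stood above those of E13.5, whereas by the transcript replicate 2 of E11.5 did not. The transcript's 1.6e-05 FPKM in 1 E15.5 Ebf2-EGFP- library stood against 0.183 for the gene entry in the same library.

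The first comparison asked whether each member differed between the sorted populations at each stage. All 4 members were higher in Ebf2-EGFP+ cells at all 3 stages. Calls came from limma on log2(FPKM + 1), fitted on the whole table, at a Benjamini-Hochberg adjusted p under 0.05. Of all listed coding genes, 36.8% were called higher in Ebf2-EGFP+ cells in the E11.5 comparison, 32.1% in that of E13.5 and 25.8% in that of E15.5. Of all listed lncRNAs, 40% were called higher for E11.5, 25% for E13.5 (50 higher and 62 lower, or 71 and 49 with median-of-ratios scaling) and 22% for E15.5.

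The E11.5 difference of Lhx1 was 3.40 ± 0.17 (log2 scale, SE; limma, adjusted p = 5.39e-08), that of E13.5 1.66 ± 0.17 (1.09e-05) and that of E15.5 2.05 ± 0.17 (3.62e-06). The means stood 41.0-fold, 59.2-fold and 39.96-fold apart, over Ebf2-EGFP- levels so low that these folds are imprecise. For Lhx5 the E11.5 difference was 2.36 ± 0.16 (limma, adjusted p = 3.87e-07), that of E13.5 2.18 ± 0.16 (3.08e-06) and that of E15.5 4.18 ± 0.16 (3.30e-08), with means 6.23-fold, 81.8-fold and 86.2-fold apart. The Lhx5 folds of E13.5 and E15.5 are imprecise too, over Ebf2-EGFP- levels of at most 0.0748 and 0.285 FPKM. The 1 added to each FPKM pulls differences of low values towards 0, which is why Lhx5 has a smaller difference on the log2 scale at E13.5 than at E11.5 and a larger fold.

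The differences of Lhx1os were 2.21 ± 0.31 for E11.5 (limma, adjusted p = 0.000133), 2.04 ± 0.31 for E13.5 (0.000463) and 2.85 ± 0.31 for E15.5 (4.74e-05). Those of Gm27199 were 2.13 ± 0.33 for E11.5 (limma, adjusted p = 0.000239), 1.75 ± 0.33 for E13.5 (0.00149) and 2.98 ± 0.33 for E15.5 (4.74e-05). At E13.5 both lncRNAs were listed at 0 in both Ebf2-EGFP- libraries, so no fold is given and the size of those differences depends on the 1 that was added. The 1500016L03Rik entry differed by 2.71 ± 0.21, 2.15 ± 0.21 and 3.07 ± 0.21 at the 3 stages (limma, adjusted p at most 8.09e-06). In bulk libraries, fewer cells that hold a transcript and less of it per cell cannot be told apart.

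**Figure D3:**
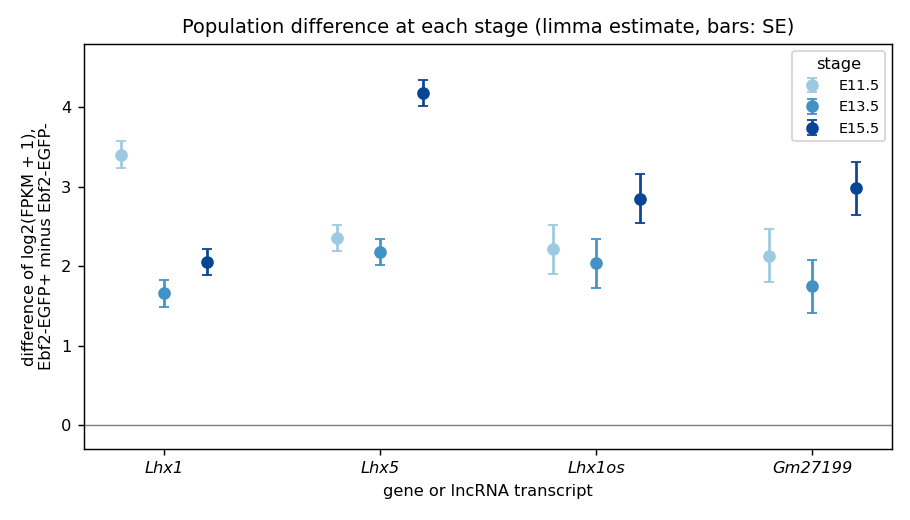
Difference of log2(FPKM + 1) between Ebf2-EGFP+ and Ebf2-EGFP- cells for each member by stage (points, limma estimates; bars, SE; 2 libraries a group). All 12 differences lie above 0, Lhx1 has its largest at E11.5 (3.40), and Lhx5, Lhx1os and Gm27199 have theirs at E15.5 (4.18, 2.85 and 2.98).

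Within Ebf2-EGFP+ cells, both coding genes and Gm27199 fell from E11.5 to E13.5, a step at which 36.1% of listed coding genes and 21% of listed lncRNAs were called falling and 21.8% of coding genes rising. With median-of-ratios scaling the coding calls of this step moved from 1057 rising and 1755 falling to 1343 and 1446. Lhx1 fell by 2.09 on the log2 scale (SE 0.17, limma adjusted p = 2.46e-06), Lhx5 fell by 2.37 (SE 0.16, 7.74e-07) and Gm27199 fell by 1.42 (SE 0.33, 0.00569). The Lhx1os transcript changed by -0.32 ± 0.31 (limma, adjusted p = 0.466), or by -0.90 (adjusted p = 0.0165) without replicate 2 of E11.5 Ebf2-EGFP+ and by 0.26 (adjusted p = 0.441) without replicate 1, so that its sign turned on 1 library. The 1500016L03Rik entry fell by 0.70 (SE 0.21, limma adjusted p = 0.0128).

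From E13.5 to E15.5, 24.6% of listed coding genes were called rising and 17.3% falling, and 18.5% of listed lncRNAs rising. Lhx5 rose by 2.26 ± 0.16 (limma, adjusted p = 5.98e-06) and Gm27199 by 1.45 ± 0.33 (0.00887). The rise of Gm27199 missed the threshold without replicate 1 of E13.5 Ebf2-EGFP+ (1.32, adjusted p = 0.0705) or replicate 2 of E15.5 Ebf2-EGFP+ (0.87, adjusted p = 0.0533). Lhx1os rose by 0.98 ± 0.31 (limma, adjusted p = 0.0373), a call lost without any one of the 2 E13.5 Ebf2-EGFP+, 2 E15.5 Ebf2-EGFP+ or 2 E13.5 Ebf2-EGFP- libraries (adjusted p up to 0.174), while 1500016L03Rik rose by 1.2 ± 0.21 (0.00097). Lhx1 rose by 0.46 ± 0.17 (limma, adjusted p = 0.0456), a call lost without any one of 8 of the 12 libraries, namely all 4 of E11.5, both of E13.5 Ebf2-EGFP-, replicate 2 of E13.5 Ebf2-EGFP+ (0.24, adjusted p = 0.342) and replicate 1 of E15.5 Ebf2-EGFP+ (0.34, adjusted p = 0.22).

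Over the whole span from E11.5 to E15.5 in Ebf2-EGFP+ cells, Lhx1 fell and the other members did not pass the test, where 42.1% of listed coding genes were called falling and 33.3% rising. Lhx1 fell by 1.63 (SE 0.17, limma adjusted p = 5.55e-06). Lhx5 changed by -0.11 ± 0.16 (limma, adjusted p = 0.557) and Gm27199 by 0.03 ± 0.33 (0.947). Lhx1os changed by 0.66 ± 0.31 (limma, adjusted p = 0.0997), and passed the threshold without replicate 1 of E11.5 Ebf2-EGFP+ (1.24, adjusted p = 0.0025) and with median-of-ratios scaling (0.87, adjusted p = 0.033). The 1500016L03Rik entry rose by 0.50 ± 0.21 (limma, adjusted p = 0.0443).

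Among the Cajal-Retzius markers, 6 of 9 fell from E11.5 to E13.5 in Ebf2-EGFP+ cells and 1 rose, and 6 rose from E13.5 to E15.5 and 1 fell. Over all listed coding genes, 36.1% were called falling and 21.8% rising from E11.5 to E13.5, and 24.6% rising and 17.3% falling from E13.5 to E15.5. Trp73, a p53-family gene of Cajal-Retzius cells, stood at 32.7 and 36.9 FPKM (E11.5), 12.9 and 12 (E13.5) and 41.9 and 54.6 (E15.5). Reln, which encodes reelin, did not dip: it measured 75.9 and 76.3, 125 and 187, and 399 and 925 FPKM. All 7 cortical plate markers rose from E11.5 to E13.5 in the same libraries and 0 were called from E13.5 to E15.5. Other lists summed lower at E13.5 than at E11.5 in these libraries. Markers of Cajal-Retzius source regions summed to 174 to 175 FPKM at E11.5 and 45.5 to 53.6 at E13.5. Meningeal or fibroblast markers summed to 39.0 to 44.6 FPKM and then to 0.950 to 1.48. Ganglionic eminence or interneuron, erythroid, radial glia, intermediate progenitor and subplate sums were also lower. Endothelial markers and the microglial gene Aif1 were higher. The part of these markers, or of the cells that hold them, in the E13.5 levels of the members was not tested.

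Within Ebf2-EGFP- cells, Lhx5 and Gm27199 fell after E11.5. Lhx5 fell by 2.19 to E13.5 (SE 0.16, limma adjusted p = 7.58e-07) and by 1.93 to E15.5 (SE 0.16, 8.19e-07), where 33.5% and 47.6% of listed coding genes were called falling. Gm27199 fell by 1.03 to E13.5 (SE 0.33, limma adjusted p = 0.0307), where 18% of listed lncRNAs were called falling. That call was lost without replicate 2 of E11.5 Ebf2-EGFP- (-0.72, adjusted p = 0.188), without replicate 1 (adjusted p = 0.0997) or replicate 2 (0.116) of E13.5 Ebf2-EGFP-, and with median-of-ratios scaling (-0.88, adjusted p = 0.0655). To E15.5 it changed by -0.81 ± 0.33 (limma, adjusted p = 0.0512), and passed the threshold without replicate 1 of E11.5 Ebf2-EGFP- or without either E15.5 Ebf2-EGFP+ library. Lhx1 changed by -0.34 ± 0.17 and -0.27 ± 0.17 over the same steps (limma, adjusted p = 0.1 and 0.145), and by -1.58 and -1.18, both called, with 0.1 added in place of 1. The E11.5 Ebf2-EGFP- libraries also differed from those of E13.5 in markers of other cell types. Higher at E11.5 were several lists: 10 ganglionic eminence or interneuron markers summed to 253 to 314 FPKM at E11.5 and 94.6 to 112 at E13.5, 17 markers of Cajal-Retzius source regions such as the hem to 248 to 269 and 16.2 to 31.6, 3 listed erythroid markers to 842 to 1745 and 10.9 to 12.7, and 5 meningeal or fibroblast markers to 98.6 to 119 and 3.70 to 5.29. The erythroid sum was carried by the embryonic globins Hbb-y and Hbb-bh1, and Alas2, the other listed marker, had means of 6.35 and 7.81 FPKM. Lower at E11.5 than at E13.5 were 7 cortical plate markers (220 to 231 against 757 to 881 FPKM) and 5 intermediate progenitor markers (68.3 to 73.9 against 284 to 380). The part of these markers in the Lhx5 level of these libraries was not tested.

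The next comparison asked whether the population difference itself changed between stages. On the log2(FPKM + 1) scale the Lhx1 difference shrank by E13.5 and that of Lhx5 grew by E15.5. For Lhx1 it changed by -1.75 ± 0.24 from E11.5 to E13.5 (limma, adjusted p = 0.000273), a step with 19.6% of listed coding genes called in that direction, and by -1.35 ± 0.24 from E11.5 to E15.5 (0.000634), with 27.7%. For Lhx5 it changed by 2.0 ± 0.23 from E13.5 to E15.5 (limma, adjusted p = 0.00105), with 9.14% of listed coding genes called in that direction, and by 1.82 ± 0.23 from E11.5 to E15.5 (7.48e-05), with 32%. With 0.1 added in place of 1, the Lhx1 changes were -0.89 (adjusted p = 0.152) and -0.67 (0.224), and the Lhx5 changes 1.21 (0.0557) and 3.36 (3.33e-05). The fold between the Lhx1 means, imprecise at such low Ebf2-EGFP- levels, was larger at E13.5 (59.2) than at E11.5 (41.0). From E11.5 to E13.5 the Lhx5 change was -0.17 ± 0.23 with 1 added (limma, adjusted p = 0.579) and 2.14 ± 0.36 with 0.1 added (0.00117), so that its direction rests on how the near-zero Ebf2-EGFP- levels are treated.

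With 1 added to the FPKM, neither lncRNA passed the test of a changing population difference in any of the 3 steps, in which 33.5%, 7% and 55% of listed lncRNAs were called in either direction (the first step, the second step and the whole span). The lowest limma adjusted p was 0.142, for Gm27199 from E11.5 to E15.5 (0.85 ± 0.47), a change that passed with 0.1 added in place of 1 (2.19, adjusted p = 0.0316). Of the 6 changes, 1 had an unadjusted limma p under 0.05 (Gm27199 from E13.5 to E15.5, 1.24 ± 0.47). Without replicate 1 of E15.5 Ebf2-EGFP+ both Gm27199 changes passed (1.43, adjusted p = 0.00893, and 1.81, adjusted p = 0.0222), and without replicate 1 of E11.5 Ebf2-EGFP+ the Lhx1os change from E11.5 to E15.5 passed (1.22, adjusted p = 0.0103).

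Each lncRNA was then set beside its coding neighbour within the Ebf2-EGFP+ libraries, as the log2 ratio of the FPKM with 1 added to each. The tables were computed on different annotations, so a ratio across them shows a change between stages rather than a true excess of either RNA. Lhx1os lay below Lhx1 at E11.5 and above it later: the log2 ratio was -0.78 and -2.10 for E11.5, 0.24 and 0.41 for E13.5, and 0.70 and 0.98 for E15.5. The stages did not overlap, and the mean rose by 2.28 from E11.5 to E15.5 (exact permutation test of the between-stage F ratio over 6 libraries, p = 0.0667, the smallest that the 15 arrangements allow). Without replicate 1 or replicate 2 of E11.5 Ebf2-EGFP+ the rise was 2.94 or 1.62. With 1500016L03Rik in place of the transcript, which keeps the ratio within the coding table, it was -0.57 and -1.33, 0.38 and 0.49, and 1.19 and 1.16, a rise of 2.13 with the same exact permutation p of 0.0667.

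Gm27199 lay below Lhx5 in every Ebf2-EGFP+ library. The log2 ratio was -1.60 and -1.30 (E11.5), -0.73 and -0.27 (E13.5), and -1.83 and -0.78 (E15.5; exact permutation test over 6 libraries, p = 0.4). With 15 arrangements no ratio could reach the threshold of 0.05. The E11.5 pair lay inside the range of the E15.5 pair, and the E13.5 pair stood above the other 4 libraries, with a mean 0.95 above that of E11.5. From E11.5 to E15.5 the mean changed by 0.14, or by 0.66 and -0.38 without replicate 1 and replicate 2 of E15.5 Ebf2-EGFP+. In FPKM without an added 1, Gm27199 stood at 0.305 and 0.379 times Lhx5 at E11.5 and at 0.506 and 0.779 times at E13.5. At E15.5 it stood at 0.247 and 0.562 times, so without the added 1 the E13.5 and E15.5 pairs overlapped.

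The coding genes, which come from a single table, parted at E15.5. The log2 ratio of Lhx1 to Lhx5 was -1.01 and -0.61 for E11.5, -0.40 and -0.66 for E13.5, and -2.15 and -2.51 for E15.5 in Ebf2-EGFP+ libraries (exact permutation test over 6 libraries, p = 0.133). Both E15.5 libraries stood below the 4 earlier ones, and the change from E11.5 to E15.5 was -1.52. In FPKM without an added 1, Lhx1 stood at 0.476 and 0.639 times Lhx5 at E11.5 and at 0.188 and 0.140 times at E15.5.

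**Figure D4:**
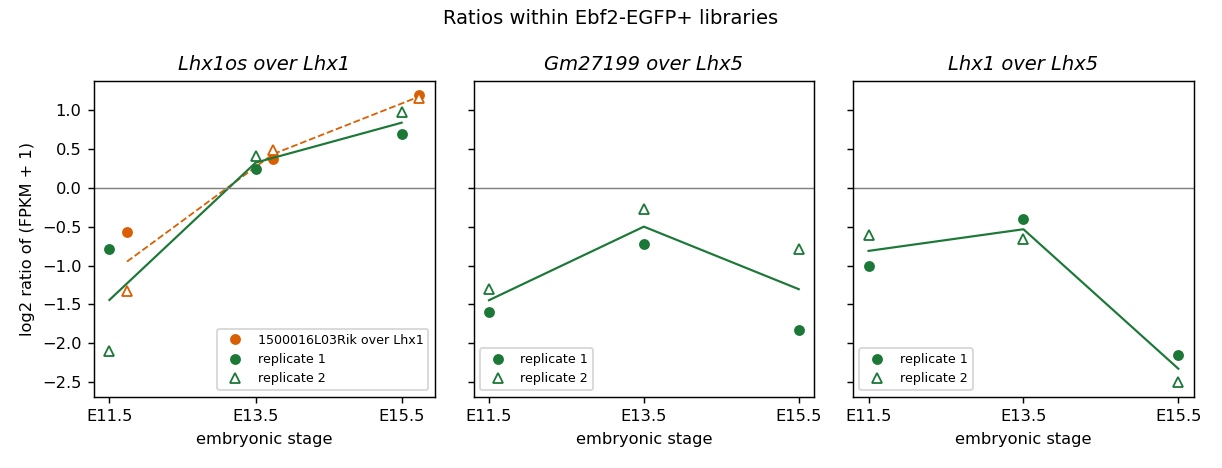
Log2 ratio of FPKM with 1 added to each, in Ebf2-EGFP+ libraries by stage: Lhx1os over Lhx1 (with the 1500016L03Rik entry over Lhx1 in orange, dashed), Gm27199 over Lhx5, and Lhx1 over Lhx5; filled circles, replicate 1; open triangles, replicate 2; lines, means. The first ratio rises from -1.44 to 0.84, the second has overlapping libraries at E11.5 and E15.5, and the third drops to -2.33 at E15.5.

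Over the 6 Ebf2-EGFP+ libraries, log2(FPKM + 1) of Lhx5 and Gm27199 correlated at r = 0.894, which put Gm27199 at rank 6 of 199 ranked lncRNAs by likeness to Lhx5. For Lhx1 and Lhx1os, r was -0.001, at rank 111 of 199. That value takes in the E11.5 libraries of the Lhx1os transcript, which lay far apart (6.64 and 2.42 FPKM). No coefficient with Lhx1 was computed for the 1500016L03Rik entry, whose E11.5 libraries lay closer together (7.86 and 4.85 FPKM). Over all 12 libraries, across both populations, the coefficients were 0.963 for Lhx5 and Gm27199 (rank 1 of 200) and 0.834 for Lhx1 and Lhx1os (rank 6 of 200). Within Ebf2-EGFP+ libraries Lhx1 and Lhx5 correlated at 0.689 and the lncRNAs with each other at 0.5. These coefficients are a description and carry no test. The part of fragments from the stretch shared by Gm27199 and Lhx5 in the likeness of that pair was not tested either.

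For the likeness to other genes the 4 members were left out of the ranking. Over all 12 libraries, where both populations enter and the population difference shared by the genes makes up much of each coefficient, the 5 coding genes nearest to Lhx1 were Cdkn1a (r = 0.983), a cyclin-dependent kinase inhibitor, Ebf3 (0.979), an EBF transcription factor, Mtus2, Rcan2 and Tmem200a (0.973). The Ebf2-EGFP+ libraries held 45.4 and 45.1 FPKM of Ebf3 (E11.5), 10.3 and 9.36 (E13.5), and 13.9 and 20 (E15.5), so that, as for Lhx1, every later library stood below those of E11.5. Nearest to Lhx5 were Sgsm1 (r = 0.969), Spon1, which encodes the matrix protein F-spondin, Eya2, a transcriptional coactivator, Gpr37 and Ptprn (0.957). Ptprn was also the nearest coding gene of Gm27199 (r = 0.978), followed by Cacna2d2, a calcium channel subunit (0.969), and Trp73 (0.958). Lhx5 itself, at 0.963, stood between Cacna2d2 and Trp73. The nearest of Lhx1os was 1500016L03Rik, the entry under its older symbol (r = 0.99), and Trp73 (0.968) followed after D130043K22Rik (0.970). Over the 6 Ebf2-EGFP+ libraries alone, the 5 nearest to Lhx1 were Igf2 (r = 0.999), Nrxn3, Ephb4, Sema6a and Smoc1 (0.993). All but Sema6a had a higher E11.5 mean in Ebf2-EGFP- than in Ebf2-EGFP+ cells (Igf2 42.4 against 15.6 FPKM, Sema6a 9.65 against 21.5). Nearest to Lhx5, Lhx1os and Gm27199 were then Dpp6 (0.999), Stambp (0.981) and Daam1 (0.986).

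Of a list of 22 LIM genes, Lhx1 and Lhx5 included (12 LIM-homeodomain, 6 cofactor and 4 LIM-only genes), 14 were in the coding table, and the other 8, among them Lhx3, Lhx4, Isl2 and Ldb1, were not. At E11.5, 5 of the 14 were higher in Ebf2-EGFP+ cells and 6 lower, where 36.8% of all listed genes were called higher and 44.9% lower. At E13.5 it was 7 higher and 3 lower (32.1% of listed genes higher and 43.5% lower), and at E15.5 6 higher and 2 lower (25.8% higher and 31.6% lower). The median difference of the 14 was -0.30, 0.61 and 0.31 at the 3 stages, beside -0.19, -0.19 and -0.11 over all listed coding genes. Without Lhx1 and Lhx5, the 12 other listed genes had medians of -0.61, 0.48 and -0.01, with 3, 5 and 4 of them higher and 6, 3 and 2 lower. Of the 8 listed LIM-homeodomain genes, Lhx1 and Lhx5 included, 7 (all but Lhx6) fell and 0 rose from E11.5 to E13.5 in Ebf2-EGFP+ cells. Over that step 36.1% of all listed coding genes were called falling. The median change of the 8 was -1.60, beside -0.20 over all listed coding genes.

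Lhx1 and Lhx5 were the 2 LIM-homeodomain genes called higher in Ebf2-EGFP+ cells at every stage. Lhx9 had the largest E11.5 difference of the 14 LIM genes, with 71.3 and 74.9 FPKM against 1.85 and 2.30, but measured 4.64 and 1.95 against 2.85 and 0.835 at E15.5 (0.62 ± 0.40, limma adjusted p = 0.2). Lhx2, a regulator of cortical identity, went from higher among Ebf2-EGFP+ libraries of E11.5 (279 and 260 against 186 and 178 FPKM) to lower at E15.5 (78.2 and 48.2 against 210 and 147). Lhx6, a gene of migrating cortical interneurons, was lower in Ebf2-EGFP+ cells throughout, with at most 1.46 FPKM in any of them against 8.63 to 32.1 in Ebf2-EGFP- cells. Lmx1a, a gene of the cortical hem, was lower among Ebf2-EGFP+ libraries of E11.5 (1.86 and 2.42 against 4.55 and 5.43 FPKM) and higher at E15.5 (1.35 and 1.37 against 0.263 and 0.0924).

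Among the partners of LIM-homeodomain proteins, Ldb2, a LIM-domain binding cofactor, rose in Ebf2-EGFP+ cells from 5.72 and 4.49 FPKM (E11.5) through 17.1 and 14.9 (E13.5) to 29.1 and 28.7 (E15.5). Ssbp2, which encodes a partner of Ldb proteins, measured 11.9 and 10.0, 10.3 and 10.4, and 40.8 and 48.9 FPKM. From E11.5 to E15.5 they rose by 2.30 ± 0.18 and 1.94 ± 0.15 (limma, adjusted p = 8.12e-07 and 6.44e-07). Of the LIM-only genes, Lmo3 rose from 6.80 and 5.17 FPKM at E11.5 to 51.5 and 38.5 at E15.5 and Lmo1 from 6.4 and 6.10 to 49.1 and 28.8, whereas Lmo2 fell from 8.31 and 7.59 to 1.96 and 1.35 and Lmo4 stood at 66.3 and 56.5 and at 74.2 and 49. The limma adjusted p was at most 8.03e-05 for the changes of Lmo1, Lmo2 and Lmo3 and 0.935 for that of Lmo4 (-0.02 ± 0.22).

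**Figure D5:**
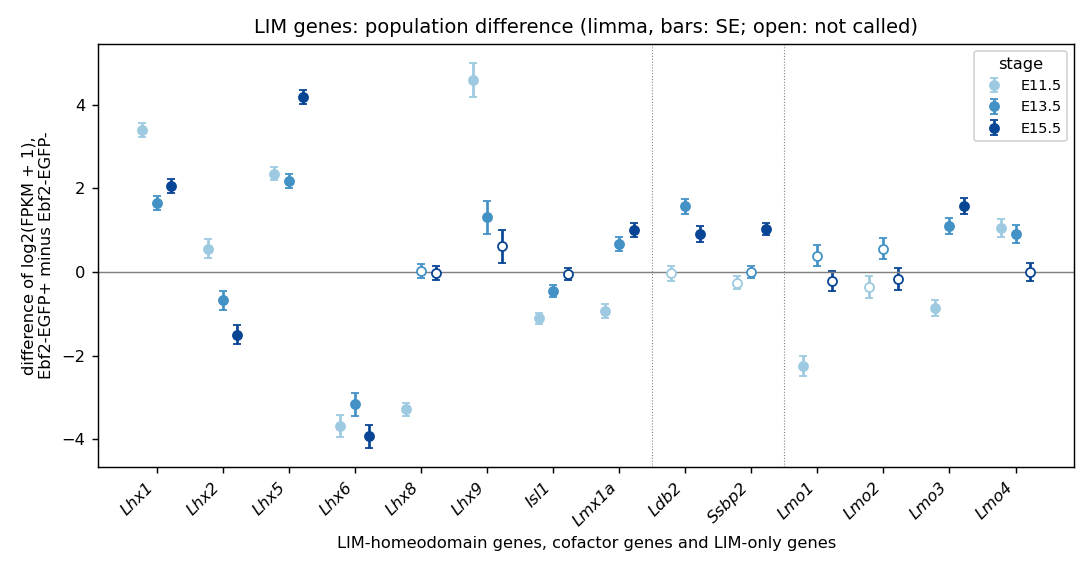
Difference of log2(FPKM + 1) between Ebf2-EGFP+ and Ebf2-EGFP- cells for the 14 listed LIM-homeodomain, cofactor and LIM-only genes, parted by dotted lines, at each stage (limma estimates; bars, SE; open points, adjusted p of 0.05 or more). Lhx1 and Lhx5 lie above 0 at all 3 stages, Lhx6 lies below, Lhx9 comes down from 4.59 to 0.62, and Lhx2 passes from 0.56 to -1.50.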

How the data were processed

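Bulk RNA-seq of 12 libraries (6 groups of 2) was used. Per the study's methods and processing notes, the authors aligned paired-end reads of polyadenylated RNA to mm10 with TopHat2 2.0.8b and deposited FPKM from Cufflinks 2.2.0, per gene for coding genes (UCSC annotation) and per transcript for known lncRNAs. The deposited tables list only features called differential by the authors, whose columns of folds, p-values and q-values were not used. Fragment counts and depth are not given back by FPKM, so no counting interval was computed. The members were fixed by name, and the members and gene lists were chosen with earlier results of these data known.

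The log2(FPKM + 1) values of each table were fitted with limma 3.58.1 in R 4.3.3, as 6 groups over 12 libraries with a variance trend, two-sided, and adjusted by Benjamini-Hochberg over the whole table within each comparison, with a threshold of 0.05. The fit was tested on simulated data. Ratios used an exact permutation test. Genes to be named were the members, the listed LIM and marker genes, and the features nearest to each member by Pearson's r (5 coding genes and 3 lncRNAs); features named otherwise were chosen after their values were seen. Same-numbered libraries of the 2 populations deviated together from their group means at each stage (correlations 0.431, 0.534 and 0.431 over coding genes; 0.265, 0.385 and 0.435 over lncRNAs). The main fit, which gave the values above, did not pair them, and pairs by replicate number entered only as the block among the alternatives. The alternatives were a pseudocount of 0.1, median-of-ratios scaling, a mean FPKM of at least 1, no variance trend, both tables in 1 fit, a block for the replicate number, a fit of the compared groups alone, and leaving out each library. The use of 1500016L03Rik in place of the Lhx1os transcript was chosen after seeing the data. Positions came from GENCODE M21 and RefSeq GRCm38.p6.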

Additional observations from a re-analysis of the deposited data

Results flagged for a closer look

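The population difference changed between stages for both coding genes by the interaction term of the limma fit. For Lhx1 it changed by -1.75 from E11.5 to E13.5 and by -1.35 from E11.5 to E15.5 on the log2(FPKM + 1) scale, and for Lhx5 by 2.0 from E13.5 to E15.5 and by 1.82 from E11.5 to E15.5. With 0.1 added in place of 1, the last of these 4 was past the threshold (3.36, adjusted p = 3.33e-05) and the other 3 were not (adjusted p from 0.0557 to 0.224). As an imprecise fold of the means, the Lhx1 difference was larger at E13.5 (59.2) than at E11.5 (41.0). With 2 libraries a group, no single library could be judged as standing apart from its group.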

How the results depend on the processing

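All 12 population differences kept their direction and their call under every alternative run (228 of 228 values). Of the stage changes 392 of 432 values, and of the changes of the population difference 220 of 228, stayed on the same side of the threshold. Called values also had to keep their direction, whereas a change of sign was not counted where neither fit made a call. The replicate block, which can be fitted only for differences between populations, changed no call of the members (the E11.5 difference of Lhx1 stayed 3.40, with an SE of 0.14 in place of 0.17).

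With a pseudocount of 0.1, the E13.5 to E15.5 rise of Lhx1 in Ebf2-EGFP+ cells (0.61) and that of Lhx1os (1.17) missed the threshold. So did the changes of the Lhx1 population difference (-0.89 and -0.67) and that of Lhx5 from E13.5 to E15.5 (1.21), while that of Lhx5 from E11.5 to E13.5 reversed to 2.14 and that of Gm27199 from E11.5 to E15.5 passed (2.19). In Ebf2-EGFP- cells, Lhx1 (-1.58 to E13.5, -1.18 to E15.5), Lhx5 from E13.5 to E15.5 (1.29) and Gm27199 to E15.5 (-2.16) then passed. With the compared groups only, the rises from E13.5 to E15.5 of Lhx1 (0.46), Lhx1os (0.98) and Gm27199 (1.45) missed the threshold, and in Ebf2-EGFP- cells Lhx1 (-0.34 and -0.27), Lhx5 (0.26) and Gm27199 (-0.81) passed, the last also with both tables in 1 fit (-0.81). With median-of-ratios scaling, which moved the median population difference of all listed coding genes at E11.5 from -0.19 to -0.00, Lhx1os passed from E11.5 to E15.5 (0.87) and Gm27199 missed it in Ebf2-EGFP- cells (-0.88). Except for the settings themselves, the causes were not tested.

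Leaving out each library in turn, the values in Ebf2-EGFP+ cells ran from 0.24 to 0.69 for Lhx1 from E13.5 to E15.5, from 0.83 to 1.12 for Lhx1os and from 0.87 to 2.03 for Gm27199 over the same step, and for Lhx1os from -0.90 to 0.26 to E13.5 and from 0.079 to 1.24 to E15.5. In Ebf2-EGFP- cells Gm27199 ran from -1.33 to -0.72 to E13.5 and from -1.12 to -0.51 to E15.5. The changes of the population difference ran from 0.66 to 1.81 (Gm27199, E13.5 to E15.5), 0.27 to 1.43 (Gm27199, E11.5 to E15.5) and 0.058 to 1.22 (Lhx1os, E11.5 to E15.5). The ratio changes ran from 1.62 to 2.94 (Lhx1os to Lhx1) and from -0.38 to 0.66 (Gm27199 to Lhx5). The counts of LIM genes stayed within 1.5 times under both alternatives run.

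Of calls over the whole tables, the change of the population difference from E13.5 to E15.5 had 444 coding genes higher and 166 lower, 1115 and 660 with the replicate block, and 94 and 44 with the compared groups only. For lncRNAs it was 5 and 9, 12 and 20 with the block, 2 and 1 with the compared groups only and 3 and 4 with a pseudocount of 0.1. Over this step in Ebf2-EGFP+ cells 37 lncRNAs were called rising and 19 falling, and 0 with the compared groups only (20 and 18 with a pseudocount of 0.1), and in Ebf2-EGFP- cells 36 and 24, and 0 with the compared groups only. From E11.5 to E13.5 the lncRNA change of the population difference had 25 higher and 42 lower calls, or 13 and 28 with a mean FPKM of at least 1, under which the 42 lncRNAs falling over this step in Ebf2-EGFP+ cells became 27. From E11.5 to E15.5 in Ebf2-EGFP- cells 74 lncRNAs rose and 50 fell, or 90 and 39 with median-of-ratios scaling. Levels under about 0.1 FPKM, and transcripts listed at 0, were not ordered, as the depth of each library is not given.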

Other observations

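Among lncRNAs other than Lhx1os and Gm27199, Gm28050 was one of the 3 nearest to Lhx1 (r = 0.940), Lhx5 (0.833) and Gm27199 (0.879) over the 12 libraries. Its mean FPKM for the successive stages was 23.2, 4.83 and 12.7 among Ebf2-EGFP+ libraries and 1.30, 2.37 and 2.03 among Ebf2-EGFP- libraries.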
